A study of Mus musculus with 15 samples.

Results

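The genes described here make and break down prostaglandins, and 10 of them were chosen by name: Pla2g4a, Ptgs1, Ptgs2, Ptges, Ptgds, Hpgds, Ptgis, Tbxas1, Hpgd and Ptgr1. Probe sets whose annotation names 1 of them and no other gene were found for 9 of the 10, among 18193 genes tested in all. Ptgs1, the constitutive cyclooxygenase, had no such probe set and was not analysed here. The 9 genes are read by 14 probe sets, and for each gene the one brightest on average, in log2(intensity + 16), stands for it below. The arrays were Affymetrix expression arrays of mouse lung RNA, with 3 arrays in each group. The groups were lung tumours at 12 months from mutant mice whose genotype includes Smad4d/d, wildtype lungs at 12 months, lungs of mutant mice of the same genotype at 7 months, and wildtype lungs at 7 months. All mice were of mixed background. Each tumour array held part of a single tumour, and the lung arrays held parts of whole lung. Most lung arrays at 7 months may hold RNA of pooled animals, as described below. The series design places the 7-month lungs before tumour initiation. Smad4 encodes the partner that receptor-activated SMAD proteins share. The effects at 7 months are those of the whole mutant genotype. At 12 months no mutant lung other than tumour was sampled. Genotype and tumour tissue therefore cannot be told apart in that comparison. The labels used here name neither the promoter that drives the deletion nor the cells it reaches.

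Prostanoids are made from arachidonic acid, which the cytosolic phospholipase encoded by Pla2g4a releases from membranes. The cyclooxygenases Ptgs1 and Ptgs2 turn it into the common precursor, and separate synthases then make prostaglandin E (Ptges), prostacyclin (Ptgis), thromboxane (Tbxas1) and prostaglandin D (Ptgds and Hpgds). The dehydrogenase Hpgd starts the inactivation of prostaglandins, and the reductase Ptgr1 acts on the product. The lung is known for clearing circulating prostaglandins, and its vessels for making prostacyclin.

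Sftpc, Ager, Scgb1a1 and Cdh5, which mark alveolar type 2, alveolar type 1, club and endothelial cells, were read on every array, with a lowest value of 2716 for Ager on a tumour array. Median intensity ran from 98 to 99.5 on tumour arrays, 95.7 to 98.1 on wildtype arrays at 12 months, 93.8 to 94.3 on mutant arrays and 90.9 to 93 on wildtype arrays at 7 months. Within groups log2 intensities correlated at 0.982 to 0.994 over genes. The tumour arrays and wildtype array 2 at 12 months lacked Xist and showed the Y-linked genes, while wildtype arrays 1 and 3 at 12 months showed Xist. At 7 months all mutant arrays and wildtype arrays 1 and 2 showed both at intermediate levels, and wildtype array 3 lacked Xist. The 18S ribosomal RNA controls read 1121 to 2036 in tumours, against 5492 to 6933 in wildtype lung at 12 months. They read 6556 to 8084 in mutant lung, against 6866 to 7032 in wildtype lung at 7 months. The part of sex and of RNA composition in the results below was not tested, other than by the fits named for sex. None of the 3 probe sets of Smad4 had a lower mean in tumours or mutant lungs than in wildtype lung. Their position against the deletion was not examined, so they do not check the genotype. The labels do not say whether arrays of a group come from separate animals in every case, so p-values measure the spread between these samples. An array that shows both Xist and the Y-linked genes reads RNA of both sexes, so it may come from pooled animals. The spread at 7 months therefore need not be that between animals, and no fit for sex was run at 7 months. In RNA of whole tissue, fewer cells of a type and less RNA per cell cannot be told apart.

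The bases before the annotated starts of the 3 genes called in tumours are shown because 2 of these genes were higher and 1 lower. Each is 250 bases long, from RefSeq (GRCm38.p6), 5′ to 3′ on the gene's strand, ending at the base before the start. Capitals mark matches to 5 short motifs, searched on both strands in the 250 bases before and the 50 after each start. They were the TATA box letters TATAAA, the cyclic AMP response core written TGACGT, the SMAD box written CAGAC, the ETS core written CGGAAG and the NF-kB part written GGGACTT. These motifs do not overlap each other in the windows shown. Pla2g4a lies at chr1:149961291-149961540 on the minus strand, Ptges at chr2:30903298-30903547 on the minus strand and Hpgd at chr8:56294302-56294551 on the plus strand.
Pla2g4a: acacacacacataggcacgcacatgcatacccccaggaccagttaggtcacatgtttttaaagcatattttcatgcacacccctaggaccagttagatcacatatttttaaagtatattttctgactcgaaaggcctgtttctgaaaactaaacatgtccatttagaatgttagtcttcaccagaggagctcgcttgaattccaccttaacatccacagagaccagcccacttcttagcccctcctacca
Ptges: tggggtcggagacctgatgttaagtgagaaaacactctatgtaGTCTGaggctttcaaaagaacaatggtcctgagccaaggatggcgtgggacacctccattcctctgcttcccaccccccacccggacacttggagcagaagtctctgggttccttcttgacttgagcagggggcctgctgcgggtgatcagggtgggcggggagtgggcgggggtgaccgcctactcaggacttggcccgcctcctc
Hpgd: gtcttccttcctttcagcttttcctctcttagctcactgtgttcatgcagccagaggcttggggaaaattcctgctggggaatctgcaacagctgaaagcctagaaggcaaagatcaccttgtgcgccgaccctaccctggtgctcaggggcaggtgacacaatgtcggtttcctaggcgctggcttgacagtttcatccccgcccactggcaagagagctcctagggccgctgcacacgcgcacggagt
The Pla2g4a window held none of the motifs, and the Ptges window held 1 CAGAC match, on the reverse strand. The Hpgd window held none before its start, and 1 TATAAA and 1 CAGAC match after it. CAGAC occurred in 49.6% of all 32851 promoters in the table and TATAAA in 13.6%, so these matches are common ones. The share of G and C was 43.2% for Pla2g4a, 59.6% for Ptges and 56.8% for Hpgd, against a median of 52.4% over all promoters. The window of a second annotated start of Pla2g4a, not shown, held 1 TATAAA match on the reverse strand and 1 CAGAC match on the forward strand. A match of letters does not show binding.

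The comparison of tumours with wildtype lung at 12 months asked which genes separate lung tumours from normal lung. Pla2g4a and Ptges, the enzyme that releases arachidonic acid and the inducible terminal synthase of prostaglandin E, were higher in tumours, and Hpgd, which inactivates prostaglandins, was lower. The other 6 measured genes, the cyclooxygenase Ptgs2 among them, did not pass the test. Thus 2 of 9 rose and 1 of 9 fell, where 9.23% of all genes tested rose and 6.02% fell, 15.2% in all (limma, adjusted p under 0.05 over all genes). The median log2 difference of the 9 was 0.09, and that of all genes 0.01. These background shares depend on scaling: 1679 genes were higher and 1095 lower as reported, and 1327 higher and 1789 lower after median centring of the arrays. All differences are tumour minus wildtype on the log2(intensity + 16) scale.

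Pla2g4a read 1872, 1516 and 2167 in the 3 tumours, against 1066, 1237 and 1262 in the 3 wildtype lungs. Every tumour lay above every wildtype lung. The log2 difference was 0.62 ± 0.15 (SE; 1.54-fold, adjusted p = 0.0413). Pla2g4a was no longer called without any 1 of wildtype arrays 1, 2 and 3 or of tumour arrays 1 and 3 (adjusted p = 0.0964 to 0.122), and the log2 difference without single arrays ran from 0.50 to 0.76.

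Ptges read 633, 316 and 695 in tumours, against 180, 222 and 237 in wildtype lung. The groups did not overlap, and tumour 2 stood closest to the wildtype values. The log2 difference was 1.23 ± 0.30 (2.35-fold, adjusted p = 0.0418). Ptges has 3 probe sets, which differed. The second in brightness read 465, 354 and 556 in tumours, against 195, 218 and 221 in wildtype lung (log2 difference 1.04 ± 0.17, adjusted p = 0.0163 in a fit of all 34945 probe sets). The dimmest read 203, 232 and 229 in tumours, against 165, 153 and 196 in wildtype lung (0.35 ± 0.12, adjusted p = 0.111). So 2 of the 3 probe sets were called higher and the dimmest lay in the same direction without passing. Leaving out any 1 array other than tumour 2 ended the call of Ptges (adjusted p = 0.102 to 0.123; log2 difference 1.03 to 1.31 in those fits).

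Hpgd read 4993, 4525 and 2696 in tumours, against 6804, 8373 and 8249 in wildtype lung. All tumours lay below all wildtype lungs, and tumour 3 was the lowest. The log2 difference was -0.98 ± 0.24 (1.97-fold lower, adjusted p = 0.0442). Its second probe set read 280, 248 and 137 in tumours, against 431, 467 and 523 in wildtype lung (log2 difference -1.10 ± 0.25, adjusted p = 0.0408 in the fit of all probe sets). Both probe sets thus gave a fall of about the same size. Leaving out any 1 array other than tumour 3 ended the call of Hpgd (adjusted p = 0.0568 to 0.13), and the log2 difference without single arrays ran from -1.15 to -0.71.

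All 3 tumours lacked Xist, as 1 of the 3 wildtype lungs did. With sex as a block Pla2g4a, Ptges and Hpgd all lost their calls (adjusted p = 0.299, 0.287 and 0.239), at log2 differences of 0.56, 1.17 and -1.09, and 1 gene in all was called. Against the wildtype array without Xist alone, with the spread of all arrays, Pla2g4a (adjusted p = 0.0499) and Hpgd (0.0454) were called and Ptges (0.117) was not.

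Markers of some cell types moved with these genes. Of 14 endothelial markers 8 were lower in tumours, and their summed intensity was 11251 to 19212 in tumours, against 27270 to 31445 in wildtype lung. Of 10 alveolar type 1 markers 3 were lower, with sums of 21999 to 35239 in tumours, against 38498 to 42347 in wildtype lung. All 10 ciliated cell markers were higher, with sums of 12721 to 18701 in tumours, against 6130 to 7811 in wildtype lung. Of 8 basal and squamous markers 7 were higher, with sums of 3061 to 7170 in tumours, against 304 to 326 in wildtype lung. All 7 mucous cell markers were higher, at 11540 to 14837 in tumours, against 1553 to 3613 in wildtype lung. Other cell types showed few calls or mixed ones. Of 10 alveolar type 2 and 7 smooth muscle markers 0 were called, and of 7 neutrophil markers 1 was higher. Of 8 club markers 3 were higher, and of 8 fibroblast markers 2 were higher and 3 lower. Among all genes 9.23% were higher and 6.02% lower. The part of these cell types in the differences of Pla2g4a, Ptges and Hpgd was not tested.

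**Figure D1:**
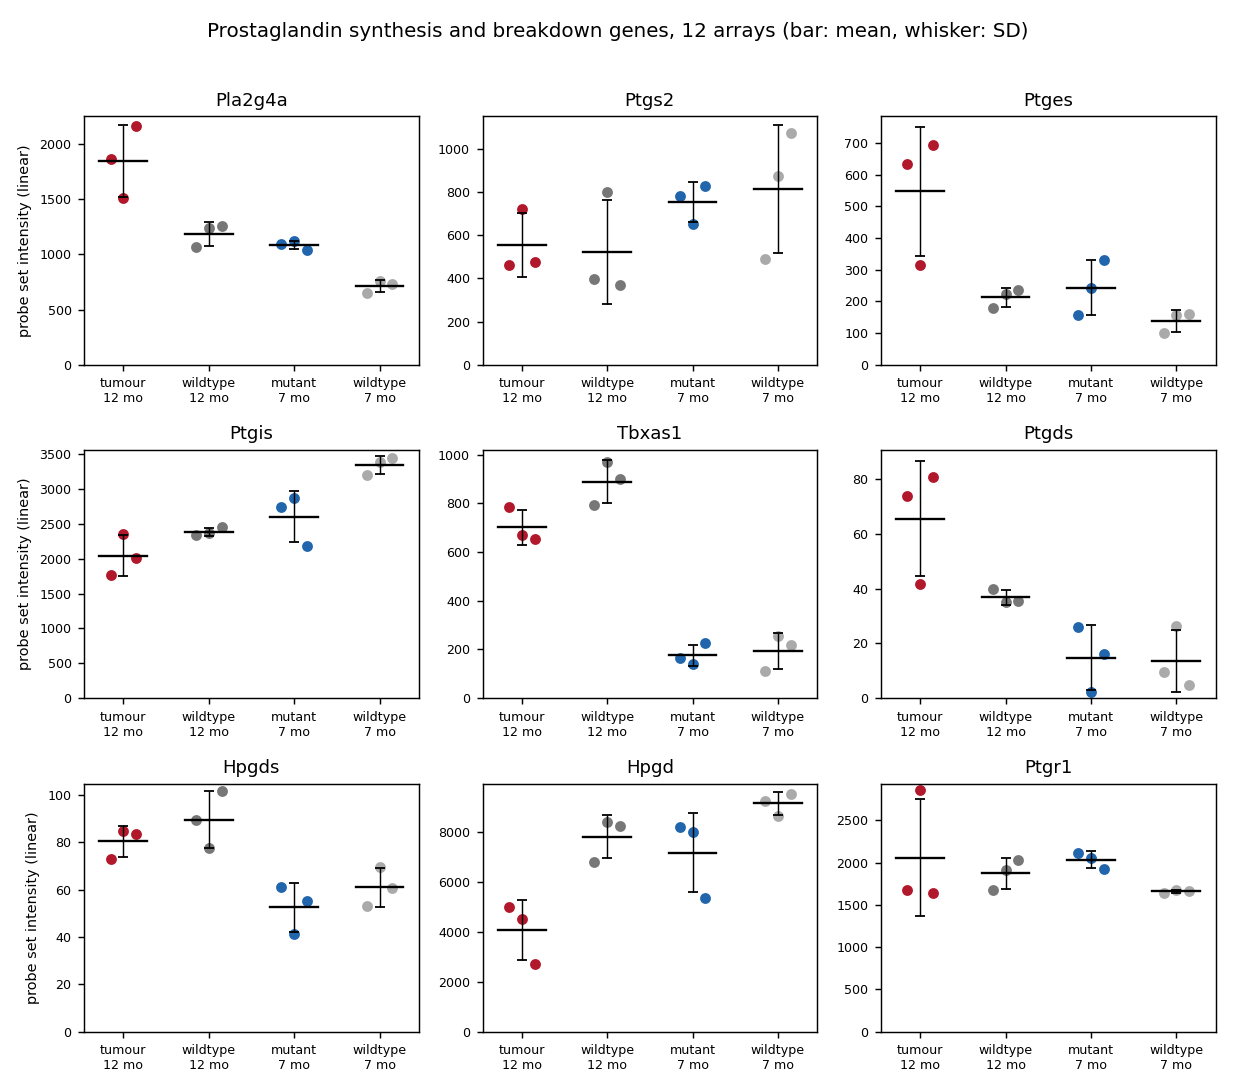
Probe set intensity (linear scale, vertical axis from 0) of the 9 measured genes on the 12 arrays, by group; each point is 1 array, the bar is the mean and the whisker the SD of 3 arrays. Pla2g4a was at 1516 to 2167 in tumours, against 1066 to 1262 in wildtype lung at 12 months, and Hpgd at 2696 to 4993 in tumours, against 6804 to 8373 in wildtype lung; Ptgs2 overlapped at both ages.

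**Figure D2:**
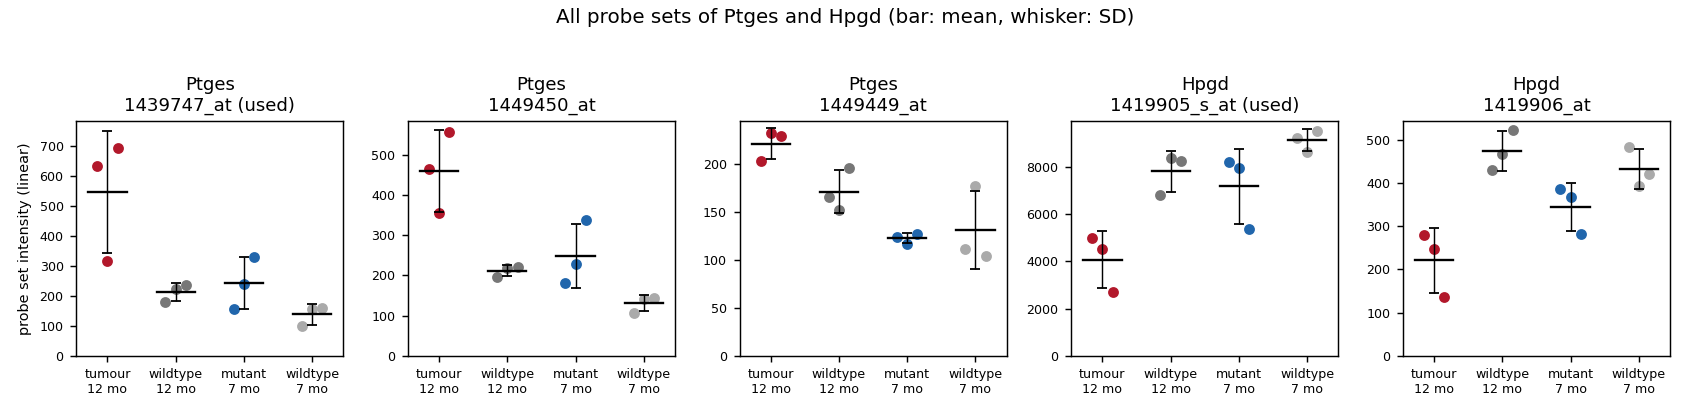
Probe set intensity (linear scale, vertical axis from 0) of every probe set of Ptges and Hpgd by group; points are arrays, bars means and whiskers SDs of 3 arrays. The 2 brighter Ptges probe sets separated tumours from wildtype lung at 12 months by more than the dimmest one did, and both Hpgd probe sets were lower in tumours.

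Ptgs2, the inducible cyclooxygenase, read 461, 724 and 478 in tumours, against 399, 801 and 371 in wildtype lung. The groups overlapped, with 1 high array in each. The log2 difference was 0.14, with a 95% interval from -0.65 to 0.93 (adjusted p = 0.819), so a change within that interval could not be seen at this spread. The value rested on wildtype array 2, the high one: without it the difference was 0.48 (adjusted p = 0.246), and against it alone, the 1 wildtype array without Xist, it was -0.55 (adjusted p = 0.42). Its sign also turned, to between -0.07 and -0.01, without wildtype array 1 or 3 or tumour array 2. Its second probe set was dim, at 26.3 to 76.7 in tumours, against 42.1 to 58 in wildtype lung.

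Tbxas1, thromboxane synthase, read 783, 668 and 652 in tumours, against 794, 969 and 899 in wildtype lung. All tumours lay below all wildtype lungs, but the difference of -0.33 ± 0.12 did not pass (adjusted p = 0.107). Macrophages and platelets are known to make thromboxane, and 5 of 12 macrophage markers were lower in tumours, with sums of 35859 to 44438, against 54593 to 62494 in wildtype lung. Of 7 platelet markers 0 passed limma's test, and the unadjusted p was 0.0584 for Pf4 and 0.479 for Ppbp. The part of these cells in the Tbxas1 values was not tested.

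Ptgis, prostacyclin synthase, read 1767, 2348 and 2017 in tumours, against 2336, 2373 and 2450 in wildtype lung, with tumour 2 inside the wildtype range. The difference was -0.23, with a 95% interval from -0.52 to 0.05 (adjusted p = 0.244). Of the endothelial markers Pecam1 was 1.97-fold lower in tumours (adjusted p = 0.018), and Cdh5 overlapped, at 2741 to 3444 in tumours, against 2901 to 3383 in wildtype lung.

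The prostaglandin D synthases were dim. Ptgds read 74, 41.7 and 80.9 in tumours, against 39.9, 35.1 and 35.4 in wildtype lung. Its groups did not overlap, and the difference of 0.59 ± 0.20 did not pass (adjusted p = 0.104). It was called without tumour array 2 (log2 difference 0.82, adjusted p = 0.00703). The other Ptgds probe set went the other way, at 27.7, 31.1 and 43.1 in tumours, against 44.2, 45.7 and 40.2 in wildtype lung (log2 difference -0.26, adjusted p = 0.263). Hpgds, the haematopoietic enzyme of mast cells and some other immune cells, read 73, 84.7 and 83.6 in tumours, against 89.3, 77.8 and 102 in wildtype lung (difference -0.13, 95% interval -0.40 to 0.14, adjusted p = 0.502). Of 10 mast cell markers 2 were higher, the proteases Cpa3 (1.66-fold) and Cma1 (1.65-fold), and 1 was lower. The summed level of the 10 was 961 to 1328 in tumours, against 1689 to 1869 in wildtype lung, and their part in the Hpgds and Ptgds values was not tested.

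Ptgr1 read 1679, 2860 and 1635 in tumours, against 1674, 1916 and 2028 in wildtype lung. Tumour 2 was the highest of the 6 arrays and the other two tumours were among the lowest. The difference was 0.09, with a 95% interval from -0.46 to 0.64 (adjusted p = 0.831). Without overlap between the groups stood 3 of the 9 genes above and 2 below wildtype lung, where 20.5% and 17% of all genes did so, 37.5% in either direction.

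The comparison at 7 months addressed changes that precede tumour formation. Pla2g4a was higher in mutant than in wildtype lung by about as much as in tumours, and Ptgr1 was slightly higher. Of the 9 genes 2 rose and 0 fell (limma, adjusted p under 0.05), where 6.42% of all genes rose and 1.39% fell, 7.81% in all. At an unadjusted p under 0.05, 3 of the 9 were higher (Ptges with the 2 called) and 2 lower (Hpgd and Ptgis), where 14.1% and 9.21% of all genes were. The median log2 difference of the 9 genes was -0.04, and that of all genes 0.01. Over all genes, 1168 were higher and 253 lower as reported, 977 higher and 424 lower after quantile normalization, and 916 higher and 1025 lower after median centring.

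Pla2g4a read 1092, 1121 and 1045 in mutant lungs, against 649, 757 and 734 in wildtype lungs. All mutant lungs lay above all wildtype lungs by more than the spread within either group. The log2 difference was 0.60 ± 0.07 (1.51-fold, adjusted p = 0.0014). It stayed called without each single array of these groups, with an adjusted p of at most 0.00891. Markers of some epithelial cell types moved with it. In mutant lungs 9 of 10 ciliated, 5 of 8 club, 4 of 7 mucous and 3 of 8 basal and squamous markers were higher. Of 10 alveolar type 2 markers 2 were higher. Alveolar type 1 markers went the other way, with 2 of 10 lower. They summed to 41269 to 46679 in mutant lungs, against 50534 to 51642 in wildtype lungs. The ciliated markers summed to 7762 to 9289 in mutant lungs, against 4673 to 4780 in wildtype lungs, and the mucous markers to 4402 to 5440 in mutant lungs, against 675 to 1458 in wildtype lungs. The club markers summed to 64073 to 67047 in mutant lungs, against 56265 to 58784 in wildtype lungs, and the basal and squamous markers to 696 to 1368 in mutant lungs, against 403 to 488 in wildtype lungs. Their part in the rises of Pla2g4a and Ptgr1 was not tested.

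Ptgr1 read 2116, 2059 and 1920 in mutant lungs, against 1640, 1671 and 1668 in wildtype lungs. The groups did not overlap, and the wildtype arrays lay within a narrow range (SD 16.7). The log2 difference was 0.29 ± 0.07 (1.22-fold, adjusted p = 0.049). This call ended without any 1 of the 6 arrays (adjusted p = 0.0564 to 0.13; log2 difference 0.26 to 0.33).

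Ptges read 157, 241 and 330 in mutant lungs, against 98.4, 157 and 159 in wildtype lungs. Mutant array 1 lay inside the wildtype range and the other two above it. The difference of 0.71 ± 0.25 did not pass (adjusted p = 0.13), and it was called without mutant array 1 (0.98, adjusted p = 0.0349). Its second probe set in brightness read 180, 227 and 336.5 in mutant lungs, against 107.5, 141 and 143 in wildtype lungs, without overlap (0.82 ± 0.21, adjusted p = 0.0624 in the fit of all probe sets). The dimmest overlapped, at 117 to 127 in mutant lungs, against 104 to 178 in wildtype lungs.

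Hpgd read 8186, 7971 and 5352 in mutant lungs, against 9224, 8639 and 9529 in wildtype lungs. All mutant lungs lay below all wildtype lungs, with mutant array 3 far below the other two. The difference of -0.37 ± 0.15 did not pass (adjusted p = 0.181). Ptgis read 2738, 2875 and 2184 in mutant lungs, against 3196, 3383 and 3448 in wildtype lungs. These groups also did not overlap, and the difference of -0.37 ± 0.11 did not pass (adjusted p = 0.0732). Endothelial markers were lower in 4 of 14 cases at 7 months, with sums of 29481 to 35758 in mutant lungs, against 41232 to 42006 in wildtype lungs. Their part in the values of Hpgd and Ptgis was not tested.

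The other four genes overlapped between mutant and wildtype lungs. Ptgs2 read 783, 653 and 830 in mutant lungs, against 492, 876 and 1076 in wildtype lungs (difference -0.04, 95% interval -0.65 to 0.56, adjusted p = 0.945). Tbxas1 read 163, 141 and 225 in mutant lungs, against 113, 253 and 217 in wildtype lungs (adjusted p = 0.891). Hpgds was at 41.2 to 61.3 in mutant lungs, against 53.1 to 69.5 in wildtype lungs (adjusted p = 0.541). Ptgds was at 2.33 to 25.9 in mutant lungs, against 4.99 to 26.4 in wildtype lungs, where 3 of the 6 values lie below the added 16. Without overlap stood 2 of the 9 genes above and 2 below wildtype lung, against 15.2% and 10.9% of all genes, 26.1% in either direction.

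**Figure D3:**
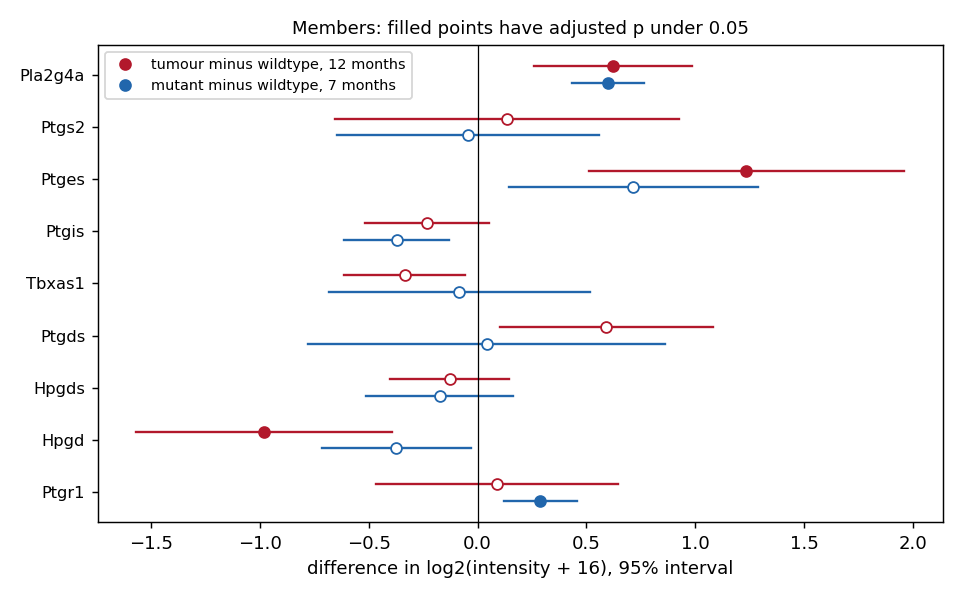
Difference in log2(intensity + 16) for the 9 genes, with 95% intervals from limma; red is tumour minus wildtype at 12 months and blue mutant minus wildtype at 7 months, 3 arrays per group, and filled points passed an adjusted p of 0.05. Pla2g4a lay at 0.62 in tumours and 0.60 in mutant lungs, and the intervals of Ptgs2 span 0 at both ages.

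The effect in tumours was then set against that in mutant lungs at 7 months, each relative to wildtype lung of its month. Age, tissue form and possible batches cannot be told apart here. None of the 9 genes differed (limma, 0 called at an adjusted p under 0.05 and 0 at an unadjusted p under 0.05), where 3.17% of all genes were called, 1.75% higher and 1.41% lower, and 18.8% had an unadjusted p under 0.05. For Pla2g4a the difference of the 2 effects was 0.02, with a 95% interval from -0.33 to 0.37. For Ptges it was 0.52, with an interval from -0.37 to 1.41, and for Hpgd -0.61, with an interval from -1.24 to 0.03. The interval of Ptges leaves room for a much larger rise in tumours than at 7 months, and that of Hpgd for a much deeper fall. Ptgr1 was called lower without tumour array 2 (-0.46, adjusted p = 0.0355).

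Levels in wildtype lung also differed between the months, as a description without a test, since month and any batch coincide. Tbxas1 read 888 ± 88 at 12 months and 194 ± 72.9 at 7 months (SD, n = 3 each), a ratio of 4.57. Pla2g4a read 1188 ± 107 at 12 months and 713 ± 57 at 7 months, so mutant lungs at 7 months (1086 ± 38.6) read close to wildtype lung at 12 months. Ptgis was lower at 12 months, at 2386 ± 58.6, against 3343 ± 131 at 7 months. Of the 9 genes 6 lay above and 2 below at 12 months without overlap, against 30.5% and 18.2% of all genes. The order of group means was tumour, wildtype at 12 months, mutant and wildtype at 7 months for Pla2g4a, and for Hpgd wildtype at 7 months, wildtype at 12 months, mutant and tumour. The middle pair of each gene overlapped.

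The further genes of the pathway were taken as a list of receptors, transporters, other synthases and reductases, and enzymes of arachidonate release, of which 29 were measured. In tumours 4 rose and 4 fell, where 9.23% and 6.02% of all genes did, and the median log2 difference was 0.04. In mutant lungs at 7 months 4 rose and 2 fell, where 6.42% and 1.39% of all genes did, with a median of 0.02. Abcc4, a pump that carries prostaglandins out of cells, was higher at both ages. It read 1513, 1601 and 2164 in tumours, against 559, 558 and 512 in wildtype lung at 12 months (log2 difference 1.65 ± 0.15, 3.14-fold, adjusted p = 0.00481). At 7 months Abcc4 read 826, 866 and 781 in mutant lungs, against 392, 362 and 422 in wildtype lungs (1.04 ± 0.07, 2.06-fold, adjusted p = 0.000152). Its groups stood far apart in both comparisons, and it stayed called without each single array of the groups compared. At 12 months the call was lost with sex as a block (1.61, adjusted p = 0.101) and kept against the wildtype array without Xist alone (adjusted p = 0.000562).

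Slco2a1, which carries prostaglandins into cells for breakdown, read 1315, 1686 and 750 in tumours, against 2669, 2362 and 2700 in wildtype lung at 12 months. Every tumour was lower, tumour 3 most (-1.11 ± 0.28, 2.15-fold lower, adjusted p = 0.0492). The call ended without wildtype array 1, 2 or 3 or tumour array 1 (adjusted p = 0.106 to 0.139; log2 difference -1.18 to -1.07 in those fits). At 7 months Slco2a1 read 2783, 2836 and 2041 in mutant lungs, against 3083, 3313 and 3499 in wildtype lungs (-0.38 ± 0.12, adjusted p = 0.103). Like Hpgd, it was lowest on tumour array 3 and mutant array 3. The endothelial markers given above were lower in the same comparison, as were 5 of 12 macrophage markers. The part of either cell type in the values of Slco2a1 and of Ptgir, described next, was not tested.

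Of the 9 prostanoid receptors measured, 2 fell and 0 rose in tumours, where 6.02% of all genes fell and 9.23% rose. Ptgir, the receptor of prostacyclin, read 378, 213 and 198 in tumours, against 1003, 1106 and 1399 in wildtype lung (-2.13 ± 0.26, 4.38-fold lower, adjusted p = 0.00823). Its groups were widely separated. Wildtype lung itself had a mean Ptgir of 1169 at 12 months and 313 at 7 months, where month and any batch coincide. The tumour mean, 263, was thus near that of wildtype lung at 7 months. Ptger2, a receptor of prostaglandin E that raises cyclic AMP, read 292, 246 and 245 in tumours, against 472, 444 and 535 in wildtype lung (-0.85 ± 0.11, adjusted p = 0.00954). Both kept their calls without each single array. With sex as a block both lost them (adjusted p = 0.127 for Ptgir and 0.142 for Ptger2), and against the wildtype array without Xist alone Ptgir lost its call (-2.06, adjusted p = 0.0889) and Ptger2 kept it (-0.74, adjusted p = 0.0041). Ptger3, another prostaglandin E receptor, read 127, 201 and 318 in tumours, against 93, 92 and 95 in wildtype lung, without overlap, and did not pass (adjusted p = 0.0705).

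At 7 months 2 of the 9 receptors fell and 0 rose, where 1.39% of all genes fell and 6.42% rose. Ptger2 read 296, 328 and 303 in mutant lungs, against 413, 402 and 371 in wildtype lungs (-0.34 ± 0.07, adjusted p = 0.0211). The call ended without wildtype array 1 or 2 or mutant array 1 or 3 (adjusted p = 0.0561 to 0.0688; log2 difference -0.33 to -0.31 in those fits). Ptger1 was dim, at 8.73 to 15.98 in mutant lungs, against 24.29 to 35.92 in wildtype lungs. All its mutant values lay below the added 16. Its difference (-0.65 ± 0.16, adjusted p = 0.0441) lost its call without any 1 of the 6 arrays (adjusted p = 0.0531 to 0.122; -0.74 to -0.53). With the mean of all Ptger1 probe sets the difference was -0.31 and was not called (limma, adjusted p = 0.21). Ptgir overlapped at 7 months, at 104 to 318 in mutant lungs, against 110 to 490 in wildtype lungs (adjusted p = 0.681).

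Among the other synthases and reductases, Cbr1, a carbonyl reductase that can turn prostaglandin E into prostaglandin F, rose at both ages. It read 799, 837 and 756 in tumours, against 606, 562 and 598 in wildtype lung (0.43 ± 0.08, adjusted p = 0.0214). At 7 months Cbr1 read 704, 772 and 608 in mutant lungs, against 481, 567 and 463 in wildtype lungs (0.45 ± 0.11, adjusted p = 0.0391). Ptges2, another prostaglandin E synthase, rose at 7 months (1.27-fold, adjusted p = 0.0487). Each of these calls was lost without single arrays: Cbr1 without wildtype array 1, 2 or 3 or tumour array 1 at 12 months (adjusted p = 0.0663 to 0.0718; log2 difference 0.40 to 0.45) and without wildtype array 1 or 3 or mutant array 1 or 2 at 7 months (0.0969 to 0.113; 0.37 to 0.44). Ptges2 lost it without any array other than wildtype array 2 (adjusted p = 0.0711 to 0.137; 0.28 to 0.39).

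Of 13 genes of arachidonate release measured, 2 rose and 1 fell in tumours, close to the 9.23% and 6.02% of all genes. Mgll, the lipase that frees arachidonic acid from an endocannabinoid, read 1237, 1218 and 789 in tumours, against 2731, 2817 and 3843 in wildtype lung (-1.53 ± 0.22, 2.89-fold lower, adjusted p = 0.0111). Mgll kept its call without each single array and lost it with sex as a block (-1.40, adjusted p = 0.159). Anxa1, an inhibitor of phospholipase activity, read 10371, 9654 and 10209 in tumours, against 6880, 7362 and 8095 in wildtype lung (0.44 ± 0.09, adjusted p = 0.0276). The secreted phospholipase Pla2g2a was dim, at 31.98 to 42.92 in tumours, against 22.86 to 26.9 in wildtype lung (0.41 ± 0.10, adjusted p = 0.0474). Anxa1 and Pla2g2a each kept their call only without tumour array 2, and lost it without any 1 of the other five arrays (adjusted p = 0.0521 to 0.0893 for Anxa1, with log2 differences of 0.38 to 0.50, and 0.0949 to 0.141 for Pla2g2a, with 0.34 to 0.45). At 7 months 1 of the 13 rose, the phospholipase Plaat3 (1254, 1402 and 1108 in mutant lungs, against 767, 977 and 858 in wildtype lungs; 0.52 ± 0.11, adjusted p = 0.0211). Its call ended without wildtype array 1 or 3 or mutant array 1 or 2 (adjusted p = 0.0588 to 0.0683; log2 difference 0.44 to 0.52).

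**Figure D4:**
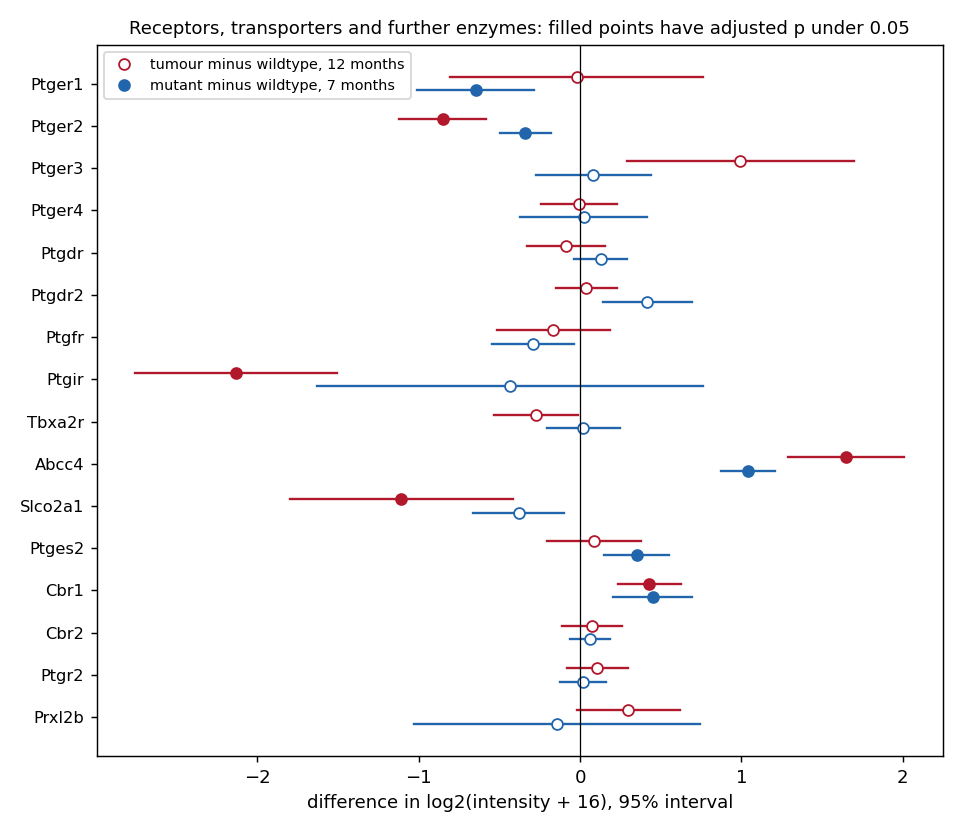
Difference in log2(intensity + 16) with 95% intervals from limma for the 9 receptors, both transporters and the 5 further enzymes measured; red is tumour minus wildtype at 12 months and blue mutant minus wildtype at 7 months, 3 arrays per group, and filled points passed an adjusted p of 0.05. Abcc4 lay at 1.65 and 1.04, Ptgir at -2.13 and -0.44 and Slco2a1 at -1.11 and -0.38 in tumours and mutant lungs.

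The genes whose pattern was most like that of each called member were found by the root mean square difference of log2 values, each centred on its own mean, over 15 arrays. For Hpgd these were Rgs12 (0.12), Ace (0.14) and Ramp2 (0.14), where Hpgd itself varied by 0.47 around its mean. For Pla2g4a they were Ubxn11, Nme7 and Prxl2a (0.10 to 0.11, against 0.44 for its own variation). For Ptges they were Slc13a2 (0.22), Pdgfc (0.24) and Corin (0.24), against 0.71. For Ptgr1 they were Exosc7 (0.09), Rab27b (0.12) and Epb41l5 (0.13), against 0.26. These are descriptions of likeness over arrays that share group and month.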

How the data were processed

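Lung RNA of 15 mouse samples was hybridised to Affymetrix arrays. Extraction by TRIzol and RNeasy clean-up preceded 3' IVT Express labelling, per the labels' protocols, so probe sets read transcripts near their 3' ends. The authors deposited probe set intensities on a linear scale for 45101 probe sets. The sources used here do not give the background correction or the array scaling. Values under 16 made up 17.1% to 21.1% of each array, and 16 was added before log2, so folds of dim genes are understated. The annotation gave 1 symbol for 34958 probe sets, several for 932, and listed no gene for the other 9211, which are unnamed here. Symbols were looked up in the RefSeq table of GRCm38.p6 (0 changed). Each gene used its probe set with the highest mean.

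Tests used limma 3.58.1 in R 4.3.3 (lmFit, eBayes, two-sided), Benjamini-Hochberg adjusted over 18193 genes. The 6 arrays of 12 months were fitted alone. The 9 arrays of 7 months were fitted together; 3 of these belong to a group not reported here, which enters the spread, the choice of probe sets and the likeness of patterns. The difference of effects used all 15 arrays. No pair of arrays held identical values. The number of arrays limits precision. On simulated data the fit of 12 months recovered 32.8% of 1.5-fold and 61.2% of 2-fold changes. The fit of 7 months recovered 61.2% and 80.6%, so real changes of these sizes can go uncalled. Replicate numbers at 7 months showed no pairing of the arrays, which groups of 3 cannot exclude. Members and lists were chosen with earlier results of these data known. All members are named, with called genes of the pathway list, the 3 genes most like each called member, and markers by count. Alternatives covered normalization, pseudocount, dim genes, probe sets, variance model, array weights, samples fitted, sex (12 months only) and single arrays.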

Additional observations from a re-analysis of the deposited data

Results flagged for a closer look

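The effect in tumours at 12 months differed from that in mutant lungs at 7 months for 2 of the 29 further pathway genes, by a test of the difference over all arrays that called 3.17% of all genes. For Mgll the difference was -1.18 on the log2 scale (± 0.27 SE, adjusted p = 0.0343): the lipase was lower by 1.53 in tumours and by 0.35 in mutant lungs. The fall in mutant lungs did not pass (limma, adjusted p = 0.184). Mgll overlapped there, at 1518 to 1818 in mutant lungs, against 1707 to 2554 in wildtype lungs. The call for the difference was lost without 6 of the 12 single arrays of these groups (adjusted p = 0.0599 to 0.0859). These were wildtype array 3 and tumour array 3 at 12 months and wildtype arrays 1 and 3 and mutant arrays 1 and 2 at 7 months. For Ptger2 the difference was -0.51 (± 0.12, adjusted p = 0.0455): the receptor was lower by 0.85 in tumours and by 0.34 in mutant lungs. It was lost without 9 of the 12 arrays (adjusted p = 0.0625 to 0.104) and stayed called only without wildtype array 2, tumour array 1 or tumour array 2 at 12 months. Groups of 3 arrays are too small for a check of single outlying arrays.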

How the results depend on the processing

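At 12 months 2 members were called higher and 1 lower. The count of members called higher was 1 after quantile normalization, median centring or against the wildtype array without Xist alone, and 0 with a pseudocount of 1 or with sex as a block. It was 3 with array weights, where Ptgds was called as well (0.66, adjusted p = 0.0418). The gene lost was Ptges after quantile normalization (1.19, adjusted p = 0.05) and Pla2g4a after median centring (0.52, adjusted p = 0.056). The count called lower was 0 with a pseudocount of 1 or sex as a block. Without single arrays these counts ran from 0 to 3 and from 0 to 1. The sex block leaves 1 wildtype array of the same sex as the tumours. At 7 months 2 members were called higher and 0 lower (5595 and 4242 genes had an unadjusted p under 0.05 at 12 and 7 months). The count called higher was 1 with median centring, a pseudocount of 1, array weights, 1 fit over 15 arrays, only the 2 groups, or without probe sets ending in _x_at or _s_at. Each time the lost gene was Ptgr1, and Pla2g4a kept its call under all alternatives run at 7 months. The count called lower was 1, Ptgis, with median centring, a pseudocount of 64, without dim genes or with a variance trend and robust fitting (adjusted p = 0.0259 to 0.0466). Without single arrays they ran from 1 to 2 and stayed at 0. With the replicate number as a block (replicate block) 1 member was called higher, Ptgr1 falling to adjusted p = 0.0708. The deviations of same-numbered arrays correlated at -0.128, 0.025 and -0.085, and those of differently numbered arrays at -0.036 to 0.139. No pairing by number was seen, but groups of 3 arrays cannot exclude one. For the difference of effects the counts stayed at 0 except for 1 lower without tumour array 2. Over all genes, counts without single arrays ran from 622 to 1900 higher and 220 to 1426 lower at 12 months, 792 to 1037 and 116 to 180 at 7 months, and 162 to 857 and 108 to 973 for the difference; under other settings they ran from 1 to 2735 and 0 to 2191, 730 to 1369 and 37 to 1025, and 218 to 448 and 164 to 425. No called gene of the members or the pathway list changed sign. Uncalled members changed sign in 9 of 107 refits at 12 months, 12 of 146 at 7 months and 12 of 215 for the difference. With sex as a block no pathway gene kept its call at 12 months (Abcc4 1.61, adjusted p = 0.101; Ptgir -2.06, 0.127). Leaving out single arrays of the group not reported ended the calls of Ptgr1, Ptger1, Ptges2 and Cbr1 at 7 months at least once, and those of Mgll and Ptger2 for the difference each time. The further comparisons planned with that group are not reported. The causes were not tested. The fall of Ptger2 at 7 months also lost its call under the block (adjusted p = 0.0559), as did the rise of Ptges2 (0.0846).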
